A study of Mus musculus with 12 samples.

Results

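Interferon-stimulated genes were followed in tumour macrophages that lacked or carried S1PR1, through which cells respond to the signalling lipid sphingosine-1-phosphate. The set comprised 38 genes named by symbol, and 1 probe stood for each gene, the brightest of those above background on at least 2 of the 8 group arrays. Of the 38, 37 had a probe in the platform's gene table and 36 were measured, out of 14103 genes measured in all. Ifi44 had no probe listed, and the only Ifit1 probe was above background on 0 of 12 arrays (raw signal 77.8 to 90.4, lowest detection p 0.260). Iigp1 passed the filter narrowly, on 2 of 8 arrays, with a lowest detection p of 0.0461.

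CD11b-high macrophages had been sorted from the breast tumours of female PyMT mice and from MCA-induced fibrosarcomas of male mice, on a C57BL/6 background. The 4 groups were S1PR1 knockout from PyMT tumours (KO_PyMT), wild type from PyMT tumours (WT_PyMT), knockout from MCA tumours (KO_MCA) and wild type from MCA tumours (WT_MCA), with 2 Illumina arrays of RNA from pooled sorted cells in each. There were also 1 mixed control array of PyMT macrophages, 2 of MCA macrophages and 1 repeat array of KO_MCA replicate 1. The labels give no age or treatment, do not say how or in which cells the receptor was removed, and leave unstated whether each replicate is its own animal or pool, so p-values here measure only the spread between these arrays.

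Interferons are signal proteins released when a cell senses viral or misplaced nucleic acid. Type I interferons bind the receptor pair Ifnar1 and Ifnar2, the kinases Jak1 and Tyk2 then activate transcription factors, which act with Irf9 on a promoter element called the interferon-stimulated response element. Interferon gamma acts through its own receptor and on a promoter element called the gamma-activated sequence. The genes so induced encode enzymes and GTPases that block virus growth, and macrophages keep many of them on at a low level without infection.

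The promoter sequences show this shared element. RefSeq promoters of build GRCm38.p6, 300 bases around each start, were given for 27 of the 38 genes. The core of the response element, GAAA, any 2 bases and GAAA again (TTTC, any 2 bases and TTTC on the other strand), was found in 17 of these 27 (63.0%), against 1079 of 27025 genes (3.99%) and 1131 of all 32851 promoters (3.44%). The core of the gamma-activated sequence, TTCNNNGAA, which reads the same on both strands, was found in 8 of 27 (29.6%), against 2582 of 27025 genes (9.55%) and 8.3% of all promoters. The Isg15 promoter is shown whole because it held 3 overlapping copies, and windows of other members are shown to compare the letters between subgroups. Capitals mark every core that lies whole in the stretch shown, overlapping ones run together.
Isg15 promoter, chr4:156200769-156201068, minus strand: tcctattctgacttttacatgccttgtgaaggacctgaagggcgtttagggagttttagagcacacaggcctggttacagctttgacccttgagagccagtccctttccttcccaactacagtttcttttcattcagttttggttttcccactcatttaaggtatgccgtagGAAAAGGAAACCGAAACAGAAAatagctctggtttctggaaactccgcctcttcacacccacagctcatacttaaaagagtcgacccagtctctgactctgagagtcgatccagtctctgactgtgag
Oas1a, chr5:120907526-120907555, minus strand: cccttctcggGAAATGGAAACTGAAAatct
Oas1g, chr5:120887612-120887641, minus strand: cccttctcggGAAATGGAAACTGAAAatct
Ifit3, chr19:34583363-34583392, plus strand: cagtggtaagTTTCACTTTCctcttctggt
Ifit3, chr19:34583397-34583426, plus strand: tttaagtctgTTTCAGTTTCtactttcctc
Rsad2, chr12:26456553-26456582, minus strand: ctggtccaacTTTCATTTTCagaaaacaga
Gbp2, chr3:142620594-142620623, plus strand: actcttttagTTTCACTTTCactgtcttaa
Gbp3, chr3:142559989-142560018, plus strand: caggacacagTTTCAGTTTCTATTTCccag
Irgm1, chr11:48871425-48871454, minus strand: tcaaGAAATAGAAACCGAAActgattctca
Igtp, chr11:58199512-58199541, plus strand: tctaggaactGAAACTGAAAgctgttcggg
Ddx58, chr4:40239804-40239833, minus strand: cctgaggcagTTTCGATTTCctatggccag
Trim30a, chr7:104465210-104465239, minus strand: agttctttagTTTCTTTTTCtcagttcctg
Oas1a and Oas1g carried the same 30 letters. Their cores overlapped, as did those of Gbp3 and Irgm1, and Ifit3 held its cores as separate copies. A match is a description of the letters and not a binding site or a cause. Isg20, Ifi35, Oasl1, Oasl2, Ifit2, Xaf1, Cmpk2, Herc6, Samhd1 and Ifi44 had no match in the windows given, which says only that these letters are not there. The 16 measured members with a core and the 9 with a promoter but no core had medians of -0.20 and -0.61 for the log2 difference of KO_PyMT minus WT_PyMT, and of -0.17 and -0.24 for KO_MCA minus WT_MCA.

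S1pr1 could not be checked, since its probe was above background on 0 of 12 arrays. Genes above background numbered 10230 and 9861 on the KO_PyMT arrays, 10526 and 11024 on the WT_PyMT arrays, 11651 and 11376 on the KO_MCA arrays and 11495 and 11814 on the WT_MCA arrays. Of 12 macrophage markers, 11 were measured and all 11 were above background on all 8 arrays, with a summed linear signal of 7964 to 10003. Tumour and sex cannot be told apart, and the PyMT arrays of the 4 groups were on 1 BeadChip, the slide that holds several arrays, and the MCA arrays on the other. The repeat of KO_MCA replicate 1 was the 1 array that crossed the slides, and for the 36 genes below it differed from the first run by a median log2 value of -0.01, with 16 higher. In sorted bulk RNA, fewer cells of a type and less RNA per cell cannot be told apart either.

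All values below are log2 intensities after background correction and quantile normalization, and a difference of 1 is a factor of 2. Levels of different probes are not compared. Of the 36 genes, 29 were above background on all 8 arrays, and 31 to 36 of them were on any 1 array. The exceptions were Ifi35 and Rtp4 (7 of 8 arrays), Isg20, Ifih1, Mx1 and Mx2 (6 of 8) and Iigp1.

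**Figure D1:**
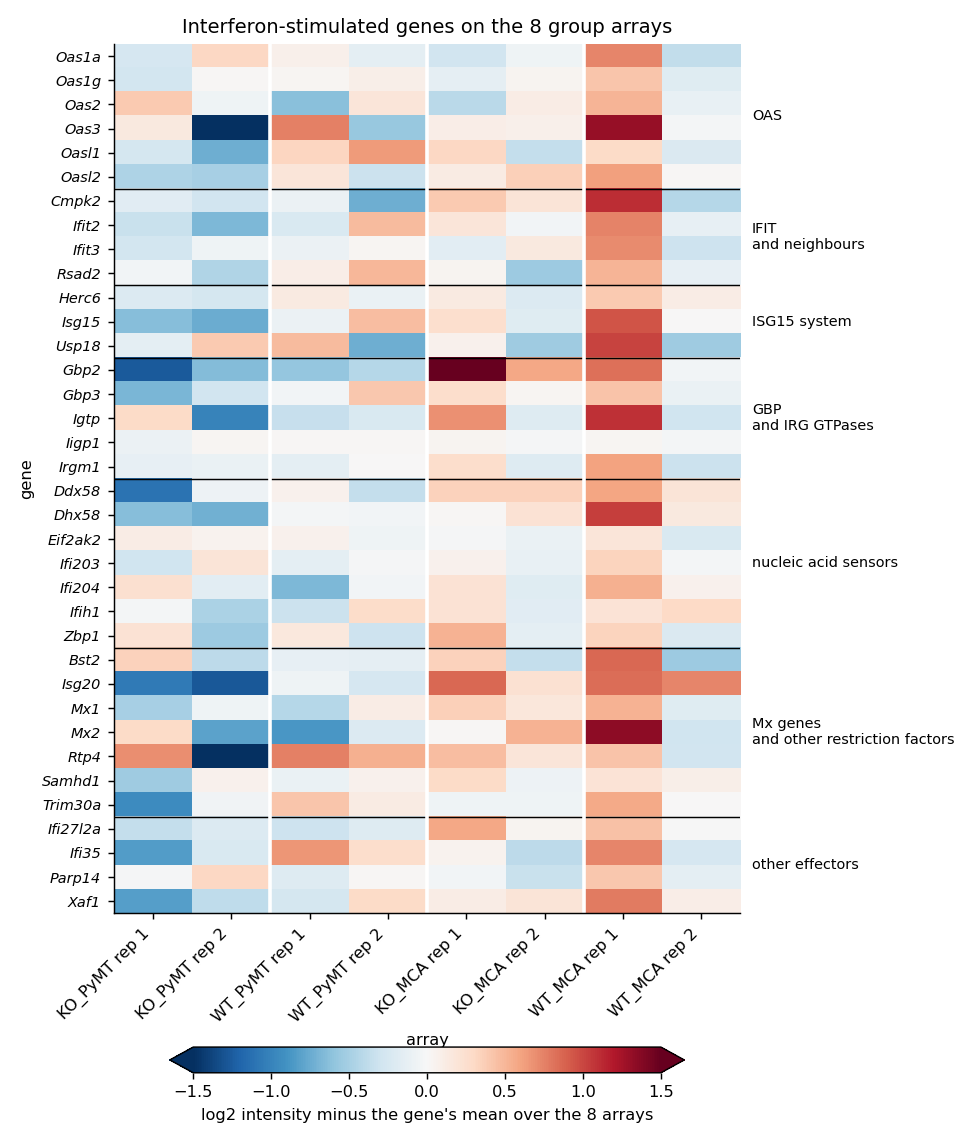
Heat map of the 36 measured genes (rows, grouped by function) on the 8 group arrays (columns), coloured by log2 intensity minus the gene's mean over the 8 arrays, with the scale ending at 1.5 in each direction. The column of WT_MCA replicate 1 is above the mean for 36 of 36 genes, and the KO_PyMT columns hold most of the lowest values.

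Among the 8 group arrays, the set was highest on a single one, WT_MCA replicate 1, and lowest on the KO_PyMT arrays. Relative to each gene's mean over the 8 arrays, the median over the 36 genes was -0.26 and -0.27 on the KO_PyMT arrays, -0.07 and -0.01 on the WT_PyMT arrays, 0.16 and -0.05 on the KO_MCA arrays and 0.58 and -0.11 on the WT_MCA arrays. Over all genes the same median lay between -0.04 and 0.00. The WT_MCA replicates stood further apart than the pairs of the other groups, and WT_MCA replicate 2 lay below both KO_MCA arrays.

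WT_MCA replicate 1 was the highest of the 8 arrays for 27 of the 36 genes (75%), against 9.62% of all genes. By subgroup this held for 5 of 6 OAS genes, a family named for an enzyme that senses double-stranded RNA and makes the activator of RNase L, for 4 of 4 IFIT genes and neighbours, for 3 of 3 genes of the ISG15 system, for 3 of 5 GBP and IRG GTPases, for 5 of 7 nucleic acid sensors, for 4 of 7 Mx genes and other restriction factors, and for 3 of 4 other effectors. A KO_PyMT array was the lowest for 24 of 36 genes (66.7%), against 38.2% of all genes. KO_MCA replicate 1 was highest for 6 genes, among them Gbp2 and Isg20, against 8.93% of all genes.

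Replicate pairs differed in how well they matched for these genes. The SD of the log2 difference between the replicates, over the 36 genes, was 0.842 for the KO_PyMT pair, 0.494 for WT_PyMT, 0.371 for KO_MCA and 0.437 for WT_MCA, and 0.277 between KO_MCA replicate 1 and its repeat array. In WT_MCA the first replicate was above the second for 35 of 36 genes, by a median of 0.62, with 8 genes over a factor of 2 apart. In KO_MCA it was above for 27 of 36 genes, by a median of 0.25, and the repeat array, which was on the other BeadChip, had a median difference of -0.01. Over all genes WT_MCA replicate 1 was above replicate 2 for 54.4%.

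The remaining arrays spread as widely. The median deviation of the 36 genes was -0.75 on the mixed PyMT array, -0.28 and 0.16 on the mixed MCA arrays and 0.16 on the repeat array. Between the mixed MCA arrays, the first was above the second for 4 of 36 genes, with a median difference of -0.54. The labels do not say what these controls mixed.

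**Figure D2:**
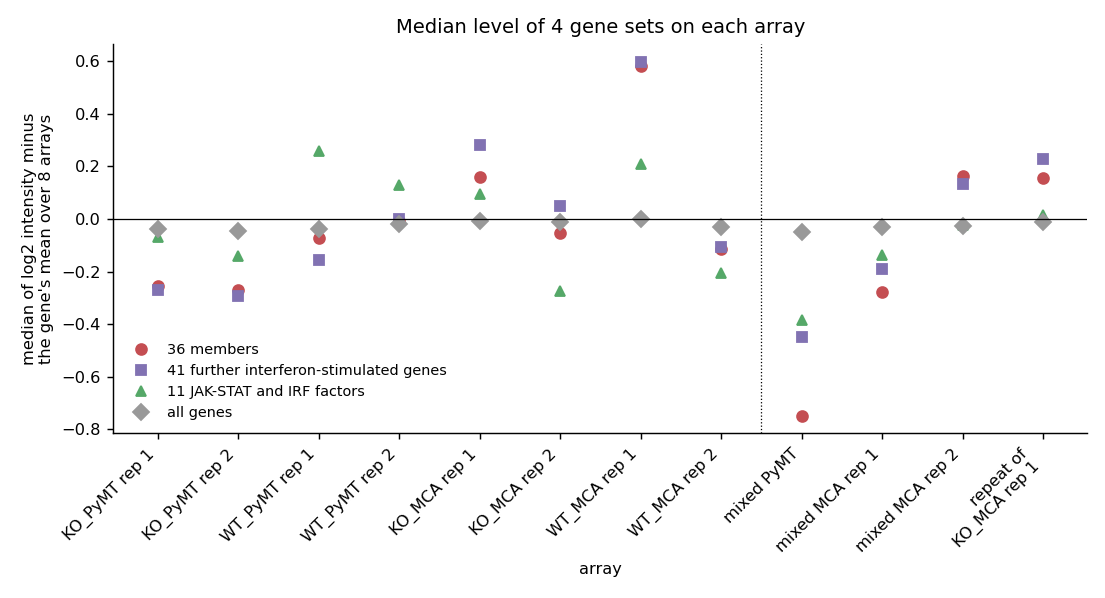
Median log2 deviation from the gene's mean over the 8 group arrays (y axis) on each of the 12 arrays (x axis) for the 36 genes (circles), 41 further interferon-stimulated genes (squares), 11 JAK-STAT and IRF factors (triangles) and all genes (diamonds). The dotted line separates the group arrays from the mixed and repeat arrays, and WT_MCA replicate 1 stands highest, at 0.58 for the 36 genes and 0.60 for the further genes.

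The first comparison asked how loss of S1PR1 went with the level of these genes in PyMT tumours. KO_PyMT was lower than WT_PyMT for 26 of 36 genes and higher for 10, with a median log2 difference of -0.20, against 50.3% of all genes lower and a median of 0.00. The groups did not overlap, with both knockout arrays below both wild-type arrays, for 14 of 36 genes (38.9%), against 18.6% of all genes. None did so in the other direction, against 17.1% of all genes. Of the macrophage markers, KO_PyMT was lower for 7 of 11 (median -0.12), 5 of them without overlap (45.5%), though their summed linear signal overlapped at 8070 and 8557 in KO_PyMT, against 7964 and 8907 in WT_PyMT. The sum of 8 monocyte markers was 396 and 313 in KO_PyMT, against 469 and 565 in WT_PyMT, without overlap, with 6 of 8 lower and 7 above background in KO_PyMT, against 6 to 8 in WT_PyMT. The part of these cells in the result was not tested. After adjustment over all genes limma called 0 of the 36 and 0 of 14103 genes (0%). At an unadjusted limma p under 0.05 there were 5 members, all lower, against 6.11% of all genes lower, and 1534 genes in either direction. With an array of any group left out, these members numbered 1 (without WT_PyMT replicate 2) to 6, and were 2 without either KO_MCA array, which enter through the shared estimate of spread.

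Of the ISG15 system, Isg15, the ubiquitin-like protein that is attached to other proteins in response to interferon, was 8.14 and 8.03 on the KO_PyMT arrays, against 8.69 and 9.24 on the WT_PyMT arrays. Both knockout arrays lay below both wild-type arrays, by -0.88 ± 0.36 (SE, n = 2 arrays per group, 1.84-fold, limma adjusted p = 0.446). Herc6, the ligase that attaches it in mice, was 5.22 and 5.17 against 5.57 and 5.32 (-0.25 ± 0.21). Usp18, the protease that removes it, was 7.64 and 8.18 in KO_PyMT, against 8.25 and 7.05 in WT_PyMT (0.26 ± 0.60), and a further Usp18 probe differed by -0.90. The probes of Usp18 thus disagreed in direction.

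Among the OAS genes, Oasl1, a family member without the enzymatic activity, was 7.67 and 7.20 on the KO_PyMT arrays, against 8.24 and 8.57 on the WT_PyMT arrays. The groups did not overlap and differed by -0.97 ± 0.32 (1.96-fold, limma adjusted p = 0.355), with differences of -0.87 and 0.01 on 2 further probes. Oasl2 differed by -0.42 ± 0.28 (-0.02 on its other probe) and Oas1g by -0.18 ± 0.25 (-0.74 to -0.34 on 4 further probes), both without overlap. Oas3 was 6.35 and 4.42 in KO_PyMT, against 6.97 and 5.64 in WT_PyMT, so that its difference of -0.92 ± 0.75 rested mainly on KO_PyMT replicate 2, and its other probe differed by 0.28. Oas2 and Oas1a measured 0.39 ± 0.37 and 0.06 ± 0.38.

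Of the IFIT group, Ifit2, which binds viral RNA, was 8.75 and 8.41 in KO_PyMT, against 8.86 and 9.55 in WT_PyMT (-0.63 ± 0.36). Rsad2, the viperin enzyme that makes a chain-terminating nucleotide, was 9.43 and 9.02 against 9.57 and 9.96 (-0.54 ± 0.32). Both were without overlap, the wild-type arrays being the higher ones. Ifit3 measured -0.14 ± 0.34, with -1.07 on its other probe, and Cmpk2, the neighbour of Rsad2 that supplies its substrate, 0.18 ± 0.49.

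The 5 GBP and IRG GTPases, which act on vacuoles that hold intracellular pathogens, were lower in KO_PyMT in 5 of 5 cases, 2 of them without overlap. Gbp3 was 6.51 and 6.90 on the KO_PyMT arrays, against 7.16 and 7.60 on the WT_PyMT arrays (-0.67 ± 0.28, 1.59-fold, limma adjusted p = 0.450), and its other probe differed by -1.09. Gbp2 was 6.03 and 6.65 against 6.71 and 6.86 (-0.45 ± 0.43), and its 2 further probes differed by -0.31 and -1.81. The IRG genes Igtp, Irgm1 and Iigp1 differed by -0.07 to -0.04, less than their standard errors. Iigp1 was above background on 0 of 2 KO_PyMT and 0 of 2 WT_PyMT arrays, so its direction is not measured. Further Irgm1 probes differed by 0.29 and -0.40.

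Of the nucleic acid sensors, Dhx58, a helicase that tunes the RNA sensors, was 5.98 and 5.90 in KO_PyMT, against 6.60 and 6.58 in WT_PyMT. It was the only sensor of 7 without overlap, with close replicates and a difference of -0.65 ± 0.30 (1.57-fold, limma adjusted p = 0.511), and of -0.49 and -0.50 on 2 further probes. The RNA sensors Ddx58 (RIG-I) and Ifih1 (MDA5) measured -0.44 ± 0.36 and -0.22 ± 0.28, Eif2ak2, a kinase that stops translation on double-stranded RNA, 0.08 ± 0.20, and Zbp1, a sensor of Z-form nucleic acid, -0.09 ± 0.38. The other Zbp1 probe differed by -0.71. The interferon-inducible p200 family genes Ifi204 and Ifi203 were 0.39 ± 0.31 and 0.03 ± 0.24.

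Among restriction factors, Isg20, an RNA exonuclease, was 4.37 and 4.16 on the KO_PyMT arrays and 5.37 and 5.18 on the WT_PyMT arrays. It was above background on 0 of 2 KO_PyMT arrays and 2 of 2 WT_PyMT arrays, so only a bound can be given, at least 1.89-fold lower in KO_PyMT (limma adjusted p = 0.242). This was the smallest p of the set. Trim30a, a regulator of Toll-like receptor signalling, was 6.33 and 7.22 against 7.68 and 7.39 (-0.76 ± 0.34). Rtp4 was 7.63 and 4.16 in KO_PyMT, against 7.69 and 7.46 in WT_PyMT. Its difference of -1.68 ± 0.98 came from 1 array, KO_PyMT replicate 2, where Rtp4 was below background, so the size is not measured. Without KO_PyMT replicate 1 the fitted value was -3.41. The other Rtp4 probe differed by -0.59 with all arrays. RefSeq lists Mx1 and Mx2 as transcribed pseudogenes in GRCm38.p6. Samhd1 and Mx1 were -0.21 ± 0.26 and -0.12 ± 0.32, and Mx2 and the tether Bst2 were 0.28 ± 0.61 and 0.11 ± 0.50. Further Samhd1 probes differed by -0.82 and 0.05.

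Of the other effectors, Ifi35, a partner of the interferon-induced protein Nmi, was 4.51 and 5.11 on the KO_PyMT arrays, against 6.01 and 5.61 on the WT_PyMT arrays. The groups did not overlap, with 1 of 2 KO_PyMT arrays above background (-1.0 ± 0.39, limma adjusted p = 0.423). Xaf1, which favours cell death, was 5.67 and 6.11 against 6.22 and 6.78 (-0.61 ± 0.32). Ifi27l2a and Parp14 measured -0.03 ± 0.26 and 0.24 ± 0.26. Of 23 further probes of 15 members, 18 had the sign of the probe used and 5 the other. The KO_PyMT arrays had the fewest genes above background, as given above, and 32 and 31 of the 36 members above it, against 32 and 35 on the WT_PyMT arrays. The part of this in the differences was not tested.

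**Figure D3:**
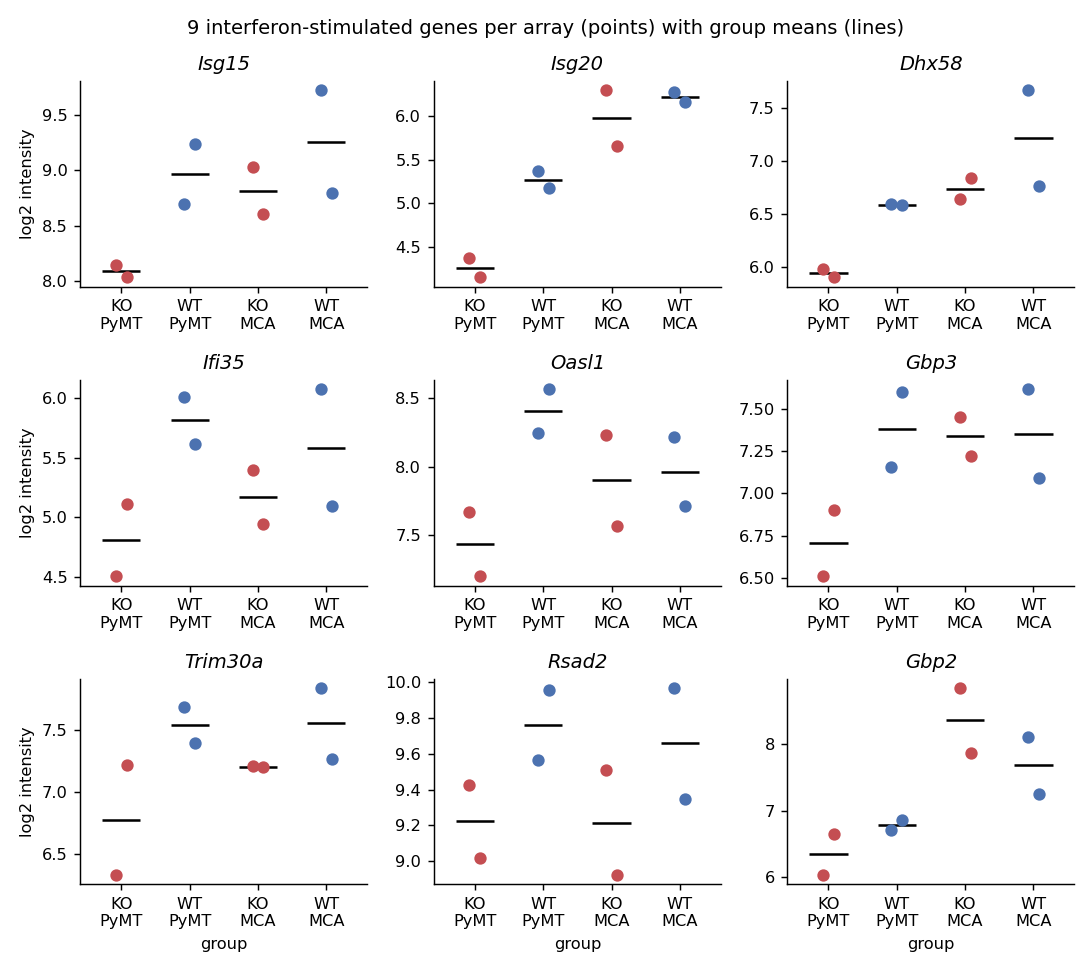
Log2 intensity (y axis) of 9 members on each group array (points, knockout red and wild type blue) with group means (lines), for KO_PyMT, WT_PyMT, KO_MCA and WT_MCA from left to right. In PyMT the knockout points of all 9 genes lie below the wild-type points, and in MCA those of all but Trim30a overlap them.

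**Figure D4:**
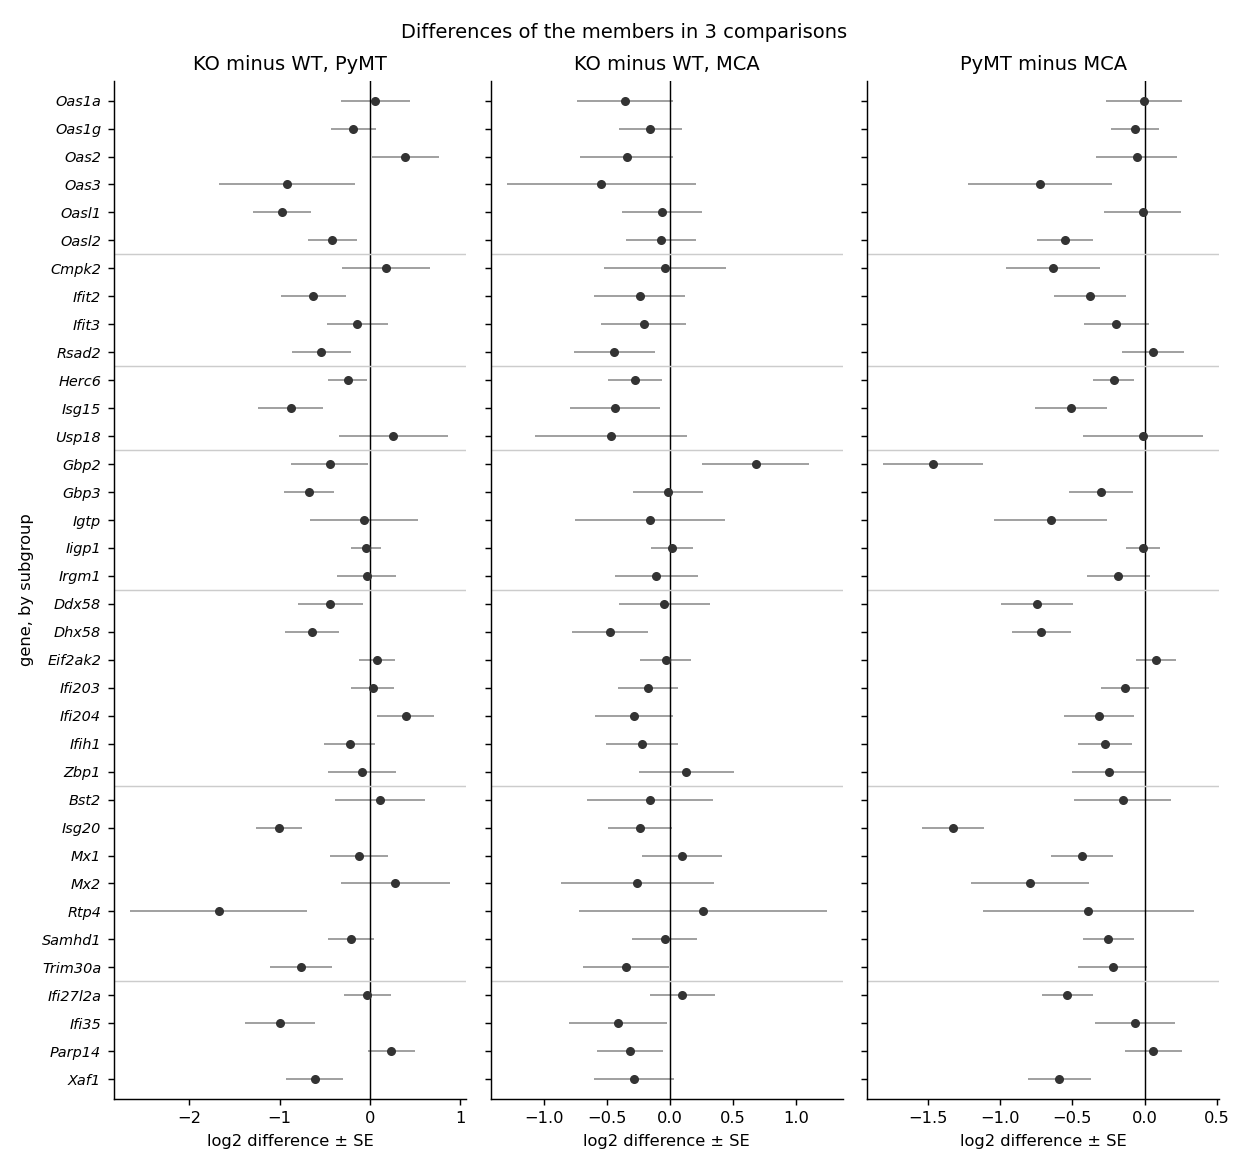
Log2 difference with its standard error for each of the 36 genes, grouped by function, for KO_PyMT minus WT_PyMT (left), KO_MCA minus WT_MCA (middle) and PyMT minus MCA (right), each panel with its own scale. Points left of 0 are lower in the group named first, which are 26, 30 and 33 of the 36 genes, and Isg20 is a fitted value with KO_PyMT below background.

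In MCA tumours the same genes were lower in the knockout by a count that turned on 1 array. KO_MCA was lower than WT_MCA for 30 of 36 genes and higher for 6, with a median difference of -0.19, against 50.2% of all genes lower and a median of 0.00. Of 23 further probes of 15 members, 16 had the sign of the probe used and 7 the other, and 14 were lower in KO_MCA. The groups did not overlap for 1 gene only, Trim30a (2.78% of members, against 15% of all genes lower without overlap). limma called 0 of the 36 and 0 of 14103 genes (0%), with an adjusted p of 1 for each member, and 0 members had an unadjusted p under 0.05, against 1.55% of all genes (219 genes). Without WT_MCA replicate 1, KO_MCA was lower for 9 of 36 genes with a median of 0.16. Without WT_MCA replicate 2 it was lower for 35 of 36 with a median of -0.55, and without KO_MCA replicate 1 or 2 for 32 and 21, with medians of -0.26 and -0.09.

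**Figure D5:**
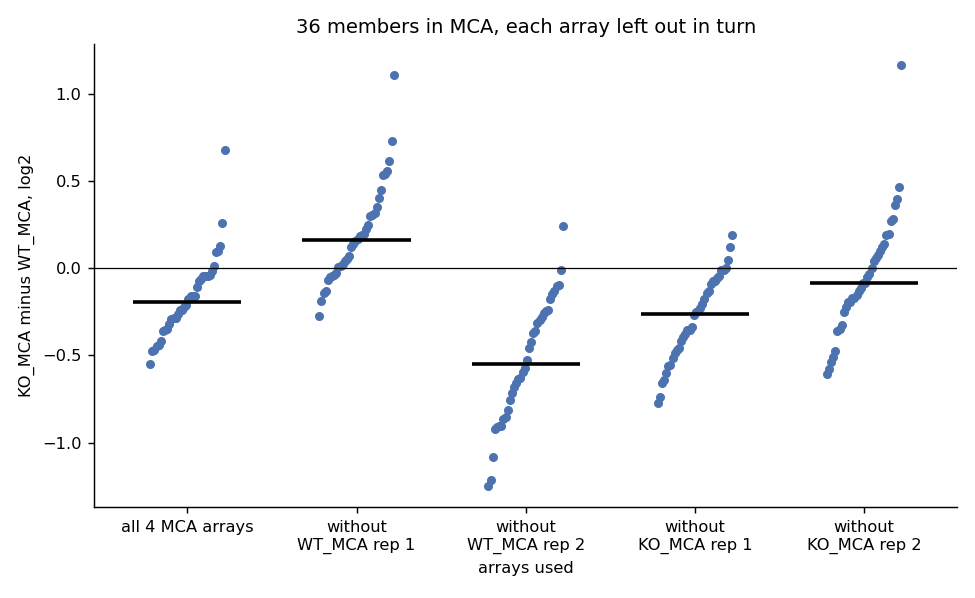
Log2 difference of KO_MCA minus WT_MCA (y axis) for each of the 36 genes (points, sorted) with the median (line), from all 4 MCA arrays and with each array left out (x axis). The median lies at -0.19 with all arrays, at 0.16 without WT_MCA replicate 1 and at -0.55 without WT_MCA replicate 2.

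The members with the smallest p in MCA show the same spread. Dhx58 was 6.64 and 6.84 on the KO_MCA arrays, against 7.66 and 6.77 on the WT_MCA arrays (-0.48 ± 0.30, SE, n = 2 arrays per group), and -0.03 without WT_MCA replicate 1. With all MCA arrays, its further probes differed by 0.05 and -0.40. Rsad2 was 9.51 and 8.92 against 9.97 and 9.35 (-0.44 ± 0.32). The groups of both genes overlapped, with WT_MCA replicate 1 highest.

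Isg15 was 9.03 and 8.60 on the KO_MCA arrays, against 9.72 and 8.79 on the WT_MCA arrays (-0.44 ± 0.36), and its difference was 0.02 without WT_MCA replicate 1. Herc6 was 5.56 and 5.22 against 5.81 and 5.54 (-0.28 ± 0.21). In both genes KO_MCA replicate 1 lay between the WT_MCA arrays. Gbp2 went the other way, at 8.85 and 7.88 in KO_MCA, against 8.12 and 7.25 in WT_MCA (0.68 ± 0.43, 1.60-fold), and its 2 further probes measured 0.41 and 0.89. The Gbp2 groups overlapped, with KO_MCA replicate 1 highest and WT_MCA replicate 2 lowest.

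Trim30a was 7.20 and 7.20 on the KO_MCA arrays, against 7.84 and 7.27 on the WT_MCA arrays (-0.35 ± 0.34), and -0.07 without WT_MCA replicate 1. By subgroup the medians were -0.25 for OAS (6 of 6 lower), -0.22 for IFIT and neighbours (4 of 4), -0.44 for the ISG15 system (3 of 3), -0.02 for GBP and IRG GTPases (3 of 5), -0.18 for sensors (6 of 7), -0.16 for Mx genes and other restriction factors (5 of 7) and -0.30 for other effectors (3 of 4). Without WT_MCA replicate 1 every one of these 7 medians was above 0, between 0.01 for the sensors and 0.45 for the restriction factors.

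Markers of other cells differed between the WT_MCA arrays too. The summed linear signal of the 10 measured fibroblast and sarcoma markers was 404 to 428 on the KO_MCA arrays, 265 on WT_MCA replicate 1 and 1925 on WT_MCA replicate 2, with 7 to 9 of them above background in KO_MCA and 5 to 9 in WT_MCA. The collagen gene Col1a1 was 6.27 and 6.34 in KO_MCA, against 4.84 and 8.91 in WT_MCA. That of 8 monocyte markers was 735 and 544 on the KO_MCA arrays, against 558 and 1232 on the WT_MCA arrays, with 7 to 8 and 5 to 8 of them above background. The fibroblast and monocyte sums were thus highest on WT_MCA replicate 2, the array with the lower interferon-stimulated level. The other marker sums were not. That of the macrophage markers was 9433 and 9017 on the KO_MCA arrays, against 10003 and 9160 on the WT_MCA arrays. Those of neutrophil, dendritic cell, T and NK cell and endothelial markers were highest in MCA on KO_MCA replicate 2. What part these cells had in the result was not tested.

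Over both tumours together, KO was lower than WT for 28 of 36 genes and higher for 8 (median -0.16, against 0.00 over all genes, of which 50% were lower). limma called 0 of the 36 and 0 of 14103 genes (0%), and 5 members had an unadjusted p under 0.05 against 2.65% of all genes lower (716 genes in either direction). These were Isg20 (-0.62 ± 0.22, a fitted value that includes both KO_PyMT arrays below background), Dhx58 (-0.56 ± 0.20), Isg15 (-0.66 ± 0.25), Ifi35 (-0.71 ± 0.28) and Trim30a (-0.56 ± 0.24, SE, n = 4 arrays per genotype), each with a limma adjusted p of 0.931. Trim30a was the 1 member whose 4 KO arrays lay below all 4 WT arrays (2.78%, against 1.23% of all genes). Without WT_MCA replicate 1 the median was -0.03 and 19 of 36 were lower, and without WT_MCA replicate 2 it was -0.32 with 35 of 36 lower. The number of members at an unadjusted p under 0.05 was 1 and 10 in these fits, and 0 to 3 without a PyMT array.

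In both tumours taken separately, which share no arrays, 20 of 36 genes were lower in the knockout in each (55.6%), against 25.6% of all genes, and 0 were higher in each. Without WT_MCA replicate 1 it was 6 of 36 (16.7%, against 22.8% of all genes), and it ranged from 14, without KO_MCA replicate 2, to 25, without WT_MCA replicate 2, when any other array was left out. The difference between the knockout effects in PyMT and MCA was negative for 22 of 36 genes and positive for 14, with a median of -0.11, against 50.6% negative and a median of -0.01 over all genes. limma called 0 of the 36 and 0 of 14103 genes (0%) for this difference, and 0 members had an unadjusted p under 0.05, against 812 genes (5.76%). The smallest p were those of Isg20 (-0.77 ± 0.36, again with KO_PyMT below background, so that its size is not measured), Oasl1 (-0.91 ± 0.45), Gbp2 (-1.13 ± 0.61), Gbp3 (-0.66 ± 0.39) and Ifi204 (0.68 ± 0.44), with limma adjusted p of 0.892 to 0.929. For Oasl1, 1 further probe measured 0.01 in PyMT and -0.71 in MCA, and another -0.87 and -0.11, so the sign of its difference turned on the probe. An effect in 1 tumour was therefore not shown to differ from that in the other.

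Between tumours, which also differed in sex and BeadChip, most of the set was lower on the PyMT than on the MCA arrays. PyMT was lower for 33 of 36 genes and higher for 3 (Eif2ak2, Parp14 and Rsad2, by 0.06 to 0.08), with a median of -0.26, against 49.8% of all genes lower and a median of 0.00. Among the lower ones, Oas1a, Usp18, Iigp1 and Oasl1 differed by only -0.005 to -0.013. limma called 24 of 14103 genes (0.17%) and 0 of the 36. At an unadjusted p under 0.05 there were 7 members, all lower (19.4%, against 8.56% of all genes), and 5 had all 4 PyMT arrays below all 4 MCA arrays (13.9%, against 5.54%). Without WT_MCA replicate 1, 25 of 36 were lower, with a median of -0.20 and 4 members at an unadjusted p under 0.05, and without WT_MCA replicate 2 there were 13.

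Isg20 was 4.37 and 4.16 in KO_PyMT and 5.37 and 5.18 in WT_PyMT, against 6.29 and 5.66 in KO_MCA and 6.27 and 6.16 in WT_MCA. The order of the groups was thus KO_PyMT, WT_PyMT, then both MCA groups, which overlapped. The fitted difference was -1.32 ± 0.22 (SE, n = 4 arrays per tumour, limma adjusted p = 0.0788). Only the 2 WT_PyMT arrays of the 4 PyMT arrays were above background, so its size is not measured and no fold is given.

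Gbp2 was 6.03 and 6.65 in KO_PyMT and 6.71 and 6.86 in WT_PyMT, against 8.85 and 7.88 in KO_MCA and 8.12 and 7.25 in WT_MCA. Every PyMT array was below every MCA array (-1.46 ± 0.35, 2.75-fold, limma adjusted p = 0.136), and 2 further probes measured -0.78 and -1.49. Dhx58 differed by -0.71 ± 0.20 (limma adjusted p = 0.184), and its 2 further probes by -1.02 and -0.74.

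Ifi27l2a, a small interferon-induced membrane protein, was 8.06 and 8.22 in KO_PyMT and 8.11 and 8.23 in WT_PyMT, against 9.0 and 8.46 in KO_MCA and 8.86 and 8.42 in WT_MCA. The 4 PyMT arrays lay within a narrow range below all MCA arrays (-0.53 ± 0.17, limma adjusted p = 0.221). Ddx58 was 5.61 and 6.63 in KO_PyMT and 6.77 and 6.35 in WT_PyMT, against 7.06 and 7.06 in KO_MCA and 7.31 and 6.91 in WT_MCA (-0.74 ± 0.25, limma adjusted p = 0.234). Oasl2 and Xaf1 differed by -0.55 ± 0.19 and -0.59 ± 0.22, with overlap.

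Between tumours the further probes ran with the probe used in 21 of 23 cases. Markers of other cells differed between the tumours as well. The summed signal of 7 epithelial markers was 261 to 424 on KO_PyMT and 352 to 478 on WT_PyMT arrays, against 176 to 189 on KO_MCA and 185 to 188 on WT_MCA arrays, with 3 to 4, 5 to 6, 1 to 2 and 2 to 3 of them above background. Cdh1 had the highest signal of the 7 on every array and so weighed most in the sum. It was 8.12 and 6.43 in KO_PyMT and 8.23 and 7.40 in WT_PyMT, against 6.34 and 5.99 in KO_MCA and 6.24 and 6.26 in WT_MCA. Epcam, a defining epithelial marker, was above background on 2 of 8 arrays, and Krt8 and Lalba on 2 of 8 each. Siglech, the surface marker of plasmacytoid dendritic cells, the chief producers of type I interferon, was 6.62 to 7.83 on the PyMT arrays, against 5.34 to 5.89 on the MCA arrays. The sum over 7 measured markers of these cells was 698 to 847 in KO_PyMT and 657 to 863 in WT_PyMT, against 658 to 691 in KO_MCA and 606 to 658 in WT_MCA, so that the groups overlapped. Some lists ran with the set, PyMT being lower for 8 of 8 monocyte markers (median -0.37), 9 of 11 macrophage markers (median -0.30, 2 without overlap and 3 at an unadjusted p under 0.05) and 9 of 10 fibroblast and sarcoma markers (median -0.47). Others ran against it. PyMT was higher for 8 of 9 dendritic cell markers (median 0.27, 3 without overlap and 3 at an unadjusted p under 0.05). It was also higher for 5 of 7 T and NK cell markers (median 0.15, 3 without overlap) and 6 of 8 neutrophil markers (median 0.18). Only 3 of 9 dendritic cell, 3 of 7 T and NK cell, 1 of 8 neutrophil and 2 of 10 fibroblast markers were above background on all 8 arrays. These counts thus include directions among values below background. The fibroblast sum was 1925 on WT_MCA replicate 2 and 265 on WT_MCA replicate 1, against 223 to 406 on the PyMT arrays. The part of these cells in the differences was not tested.

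Of the ligands, 3 of 10 interferon genes were measured. Ifnb1, which encodes interferon beta, was 8.58 and 8.97 in KO_PyMT and 8.22 and 9.95 in WT_PyMT, against 5.45 and 5.96 in KO_MCA and 5.65 and 6.47 in WT_MCA. All 4 PyMT arrays were above all 4 MCA arrays, and Ifnb1 rose in PyMT relative to MCA by 3.05 ± 0.38 (limma adjusted p = 0.0325). The ligand and the set therefore ran in opposite directions between tumours. The mixed MCA arrays had Ifnb1 at 8.22 and 4.57, and the one with more Ifnb1 was the one with the lower median of the set. Between genotypes Ifnb1 differed by -0.31 ± 0.57 in PyMT and -0.35 ± 0.57 in MCA, and Ifna1 by 0.16 ± 0.21 and -0.25 ± 0.21. Ifne, an epithelial interferon, was above background on 0 of 4 MCA arrays.

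Of the 6 receptor genes, limma called 0 in each comparison of KO with WT, and 1 had an unadjusted p under 0.05 in PyMT. That was Il10rb, the receptor chain shared by interleukin-10 and interferon lambda, at 6.98 and 6.87 in KO_PyMT, against 5.74 and 5.62 in WT_PyMT (1.24 ± 0.25, limma adjusted p = 0.172). In MCA its mean was lower in the knockout, at 5.91 and 6.10 in KO_MCA, against 6.06 and 6.68 in WT_MCA, with overlap. Ifnar1 was at 4.22 and 4.13 in KO_PyMT, against 4.52 and 4.48 in WT_PyMT, and at 4.28 and 4.30 in KO_MCA, against 4.44 and 4.53 in WT_MCA. It was above background on 0 of 4 KO arrays and 4 of 4 WT arrays, which gives at least 1.14-fold lower in KO (limma adjusted p = 0.931), a signal close to background throughout. On the repeat array of KO_MCA replicate 1, however, Ifnar1 was 4.51, above background and between the 2 WT_MCA values. The split by genotype and the bound therefore did not hold when that sample was measured again. Ifnar2 measured 0.28 ± 0.28 in PyMT and -0.31 ± 0.28 in MCA.

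Among the JAK-STAT and IRF factors, 11 were measured. KO_PyMT was lower than WT_PyMT for 7 of 11 and KO_MCA lower than WT_MCA for 9 of 11, and limma called 0 in both, with 2 lower at an unadjusted p under 0.05 in PyMT (Irf7 and Tyk2) and 0 in MCA. The MCA count was 3 of 11 without WT_MCA replicate 1 and 5 of 11 without KO_MCA replicate 2. Tyk2, the kinase on Ifnar1, was 5.23 and 4.46 in KO_PyMT, against 5.73 and 6.03 in WT_PyMT, and 5.53 and 4.55 in KO_MCA, against 5.58 and 5.60 in WT_MCA. Its 4 KO arrays lay below all 4 WT arrays (-0.79 ± 0.27, limma adjusted p = 0.931). Irf7, the factor that amplifies interferon production, was 4.56 and 4.24 in KO_PyMT, against 6.11 and 5.71 in WT_PyMT, and 5.79 and 6.22 in KO_MCA, against 6.69 and 5.38 in WT_MCA. Irf7 did not overlap in PyMT, where 1 of 2 KO_PyMT arrays was above background, and overlapped in MCA, and its effects differed between tumours by -1.48 ± 0.61 (limma adjusted p = 0.853). Irf9 measured -0.94 ± 0.55 in PyMT.

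The sensors' adaptors and kinases (10 of 11 measured) and the negative regulators (8 of 8 measured) had 0 genes called by limma and 0 with an unadjusted p under 0.05 in PyMT or in MCA. KO_PyMT was lower for 6 of 10 and 4 of 8 of them, and KO_MCA for 7 of 10 and 5 of 8. Tlr7, an endosomal RNA receptor, measured 0.52 ± 0.26 in PyMT and -0.49 ± 0.26 in MCA. Socs3, an inhibitor of JAK signalling, measured 0.12 ± 0.17 in PyMT and -0.39 ± 0.17 in MCA.

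A second list of 48 interferon-stimulated genes outside the set, 41 of them measured, showed the same array pattern. WT_MCA replicate 1 was the highest array for 26 of 41 (63.4%), and the medians per array were -0.27 and -0.29 for KO_PyMT, -0.16 and 0.00 for WT_PyMT, 0.28 and 0.05 for KO_MCA and 0.60 and -0.10 for WT_MCA. KO_PyMT was lower than WT_PyMT for 35 of 41 (median -0.33, or -0.20 without KO_PyMT replicate 1 or WT_PyMT replicate 2), 14 of them without overlap (34.1%, against 18.6% of all genes). In the other direction 2 of 41 did not overlap, against 17.1% of all genes. KO_MCA was lower than WT_MCA for 28 of 41 (median -0.06). It was so for 12 of 41 with a median of 0.28 without WT_MCA replicate 1, for 36 with -0.42 without WT_MCA replicate 2, and for 32 and 18 with -0.18 and 0.04 without KO_MCA replicates 1 and 2. limma called 0 of the 41 in both tumours. At an unadjusted p under 0.05 there were 4 lower in PyMT (9.76%, against 6.11% of all genes), and in MCA 1 lower and 1 higher (2.44% each, against 0.667% and 0.886% of all genes).

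In this list Nmi, the partner of Ifi35, was 4.63 and 4.30 in KO_PyMT, against 6.04 and 5.55 in WT_PyMT (-1.33 ± 0.34, limma adjusted p = 0.245). Nmi was above background on 1 of 2 KO_PyMT arrays. Irgm2, an IRG GTPase, was 5.55 and 4.87 against 6.75 and 6.47 (-1.40 ± 0.40), and Pml, the organiser of nuclear bodies, 5.33 and 5.42 against 6.23 and 5.70 (-0.59 ± 0.24). In each of these genes both knockout arrays lay below both wild-type arrays. In MCA, Ifitm1, which blocks virus entry, was 9.98 and 9.94 in KO_MCA, against 10.50 and 10.44 in WT_MCA (-0.51 ± 0.17, limma adjusted p = 1). Cxcl9, the T cell chemokine induced by interferon gamma, was 9.05 and 7.43 in KO_MCA, against 6.67 and 6.13 in WT_MCA (1.84 ± 0.62, limma adjusted p = 1), and thus higher in the knockout without overlap. No member of the set was so in MCA (0 of 36, against 15.8% of all genes).

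Between tumours PyMT was lower for 39 of these 41 genes (median -0.36), 10 of them without overlap (24.4%, against 5.54% of all genes), and 33 of 41 without WT_MCA replicate 1. The smallest p were those of Pml (-1.25 ± 0.19), Ifitm1 (-0.77 ± 0.12) and Gbp7 (-1.18 ± 0.23), with limma adjusted p of 0.0673, 0.0755 and 0.103. Cxcl10, another interferon-induced chemokine, measured 0.16 ± 0.15.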

How the data were processed

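RNA from pooled, sorted CD11b-high macrophages was measured on 12 single-colour Illumina BeadChip arrays. The labels name 2 amplification kits and do not say which array had which. The deposited intensity is the mean bead signal per probe, neither normalized nor background-subtracted, per the file headers. The deposited p-value per probe tests that signal against background, per the file headers, by a test the labels do not name. The authors' deposited normalized intensity values served as an alternative. Their method is not given, they are linear, and they keep each array's order of probes.

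neqc of limma 3.58.1 (R 4.3.3, tables read with data.table, version 1.17.8) inferred each array's background from the deposited p-value, added an offset of 16, quantile normalized all 12 arrays together and took log2. Symbols of 937 probes were updated through RefSeq, and 4527 kept the platform's symbol. Of 46237 probes, 35784 had 1 symbol, 0 several and 10453 none listed. Probes with a p under 0.05 on at least 2 of 8 group arrays were kept (26748, of which 21699 had a symbol), and the brightest per gene was used (14103 genes). A gene was above background on an array at a p under 0.05.

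limma fits over the 8 group arrays, with 4 groups (residual df 4, prior df 2.73) or with additive genotype and tumour (residual df 5, prior df 2.89), gave two-sided p-values, adjusted over all genes by Benjamini-Hochberg and called at an adjusted p under 0.05. For a gene with no array of a group above background, the fold is a lower bound against the higher of the lowest signal above background and the gene's own. The limma fit was checked on simulated data with changes larger than any member's difference with all arrays. That check does not cover differences of the size reported here. The members and all lists were chosen with earlier results of these data known. Every member may be named. Per-array values are given for the 5 members with the smallest p in each comparison and for others where the text turns on them, any pathway gene may be named, and of the second list the 3 with the smallest p in each direction. Over all genes, deviations of same-numbered replicates were close to uncorrelated (correlation -0.004 in PyMT and 0.076 in MCA). This does not settle whether they pair for the members. In MCA the first replicate was above the second for 27 of 36 members in KO_MCA and 35 of 36 in WT_MCA. In PyMT it was so for 19 in KO_PyMT and 15 in WT_PyMT. The number of arrays limits the precision.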

Additional observations from a re-analysis of the deposited data

How the results depend on the processing

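The median of the 36 genes stayed negative in each comparison of KO with WT and of PyMT with MCA under every alternative in background correction, normalization, filter, probe choice, array weights, replicate block and repeat array. It ran from -0.32 to -0.10 in PyMT, -0.22 to -0.10 in MCA, -0.22 to -0.10 over both tumours and -0.46 to -0.15 between tumours, where the lowest value, from median scaling, came with a shift of -0.10 in the median of all genes. With each array left out it ran from -0.26 to -0.20 in PyMT, -0.55 to 0.16 in MCA, -0.32 to -0.03 over both and -0.39 to -0.20 between tumours. The MCA extremes, against an SD of 0.259 of this median between replicates, came without WT_MCA replicates 2 and 1. Rtp4 without KO_PyMT replicate 1 was the 1 case of a called member. Counts of all genes called moved more. In PyMT they were 0 in the reported fit, 8 without background correction, 8 from the authors' values and 4 without the detection filter, and 0 to 118 with each array left out (118 without KO_PyMT replicate 1, 41 without KO_PyMT replicate 2, a lone array being assumed to vary like the other groups). Over both tumours they were 2 without background correction and 2 from the authors' values, and for the difference of effects 0 to 1 with each array left out. Between tumours, against 24, they were 47 without background correction, 38 with normexp, 40 from the authors' values, 14 with the filter set to all 8 arrays and 11 with the replicate block, and 8 to 31 with each array left out. The block changed no call of a member, and the labels do not say what same-numbered replicates share. The causes were not tested. Genes near background, such as Iigp1, Mx1 and Ifih1, could not show small differences here. Leaving out arrays for the other lists, and for the count of genes lower in both tumours, was chosen after the data were seen.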
